A study of Mus musculus with 6 samples.

Results

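The replication-dependent histone genes of the mouse were measured in the dorsal hippocampus after injection of an antisense oligonucleotide (ASO) against the long non-coding RNA Snhg11. They were taken as the protein-coding genes whose GENCODE M21 symbols begin with Hist1h, Hist2h, Hist3h or Hist4h, which are 67 of the 55401 genes counted. A mean of at least 10 counts over the 6 samples was reached by 53 of them, and these are the genes described here. They comprise 5 of 6 genes for the linker histone H1, 10 of 18 for H2A, 15 of 18 for H2B, 11 of 12 for H3 and 12 of 13 for H4.

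The animals were 4-month-old male WT littermates of the Ts65Dn line, a mouse model of Down syndrome. All 6 received a bilateral injection of 50 µg of ASO per hemisphere into the dorsal dentate gyrus (DG). In 3 mice this was Snhg11-ASO, which directs RNase H to Snhg11, and in 3 it was Control-ASO, which is as long as Snhg11-ASO but was scrambled so that it has no target. Dorsal hippocampi were taken 3 days later, so the samples hold tissue beyond the injected DG, and both groups carry the effects of surgery and of an oligonucleotide. Libraries were made from ribosome-depleted total RNA, without selection for poly(A) tails.

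Replication-dependent histone mRNAs are made mainly in S phase, when new DNA has to be packed into nucleosomes of H2A, H2B, H3 and H4, with H1 on the linker DNA. They are the metazoan mRNAs known to lack a poly(A) tail: the transcript ends in a conserved stem-loop that the stem-loop binding protein Slbp holds, and the U7 snRNP guides the cut just after it. In adult brain most neurons do not divide, and replication-independent variants, most of them polyadenylated, supply much of the histone there, while dividing progenitors in the DG and dividing glia use the genes described here. Some of the cluster genes are also known to give longer, polyadenylated transcripts in cells that have left the cycle.

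Each library held 28951250 to 43997537 counts on genes, and mitochondrial genes took 23.7% to 28.2% of them. The neuronal gene Snap25 stood at 884 to 1113 CPM (counts scaled to a library total of 1000000) and Prox1, a marker of DG granule cells, at 82.1 to 167 CPM. The choroid plexus gene Ttr varied from 12.9 to 1752 CPM and split both groups. Snhg11 itself was counted at 551, 436 and 209 CPM in Control-ASO samples 1 to 3 and at 139, 65.4 and 69.4 CPM in the Snhg11-ASO samples. The Snhg11-ASO mean was 22.9% of the control mean and the groups did not overlap, with an exact two-sided permutation p = 0.1, the smallest that 3 against 3 can give. The log2 fold change was -2.13 (SE 0.43, adjusted p = 0.395 in edgeR's quasi-likelihood test), and -2.12 with an adjusted p = 6.25e-05 in DESeq2.

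Snhg11-ASO replicate 1 stood apart from the other 5 libraries over all genes and in those described here, and its values are given beside each result. The chi-square of the counts of a pair of libraries, per gene, was 78.7 to 117 in the pairs that held this library and 15.3 to 50.03 in the others. In this library the neuronal list had a median of 95.1% of the mean of the other 5 over its 6 genes. They ranged from 88.0% for Snap25 to 162% for Prox1, the granule cell marker, which was highest in this library. All 5 microglial markers (Cx3cr1, P2ry12, Tmem119, Csf1r and Aif1) were lowest in it, at a median of 21%, and their summed level was 74.6 CPM against 160 to 278 CPM in the others. Of the 4 oligodendrocyte markers, 3 were lowest in it, at a median of 41.6%, and their summed level was 1127 CPM there, 1184 to 2173 CPM in Control-ASO and 2110 to 2657 CPM in the other Snhg11-ASO samples. The 3 endothelial markers stood at a median of 169%. The astrocyte list stood at a median of 57.9%, but its summed level, 1437 CPM, was above that of Control-ASO replicate 1, 997 CPM, and the other 4 libraries held 2090 to 3412 CPM.

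Of the tested markers, 2 of 4 of immature neurons and both of oligodendrocyte precursors were lower in Snhg11-ASO without overlap of the groups (7.7% of all genes tested). So was 1 of the 6 neuronal markers, Gad1, with a log2 fold change of -0.21. Among the 3 blood markers, 2 were higher without overlap, Hbb-bs and Hba-a1 (7.73% of all genes tested). The lower genes were not low in Snhg11-ASO replicate 1 alone, and all these genes are named after their values were seen. Dcx, a microtubule protein of young neurons, stood at 24.4, 18.7 and 29.7 CPM in Control-ASO and at 15.1, 17.9 and 17.5 CPM in Snhg11-ASO, and Tbr1, a transcription factor of young glutamatergic neurons, at 23.1, 23.7 and 34.2 CPM and at 17.1, 19.2 and 16.4 CPM. The groups overlapped for neither gene, and the log2 fold changes were -0.53 (SE 0.18, adjusted p = 0.561 in edgeR) and -0.62 (SE 0.18, adjusted p = 0.507). These were the 2 of 4 tested genes of the list with an unadjusted p under 0.05 in edgeR (8.11% of all genes tested). The groups overlapped for Neurod1 (log2 fold change -0.10) and for Sox11, which went the other way, at 0.61. Sox11 was at 303% of the other 5 in Snhg11-ASO replicate 1, and its log2 fold change was -0.22 without that library. Pdgfra and Cspg4, the 2 markers of oligodendrocyte precursors, were also lower without overlap, with log2 fold changes of -0.19 (SE 0.09) and -0.51 (SE 0.24) and an adjusted p of 0.647 each in edgeR. The gaps were very narrow. The highest Snhg11-ASO values were 53.59 CPM for Pdgfra and 17.91 CPM for Cspg4, and the lowest Control-ASO values 53.95 and 17.96 CPM. Cspg4 was lowest in Snhg11-ASO replicate 1, at 10.3 CPM, and without that library the log2 fold changes were -0.17 for Pdgfra and -0.31 for Cspg4. Whether these shifts in other cell types bear on the histone values was not tested, and in bulk tissue fewer cells of a type cannot be told apart from less RNA per cell.

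The stem-loop is the sequence that defines this gene family, and it is shown first because it sets how the transcripts end. The search used a preset histone pattern of 16 bases, not any hairpin: GGYYCT, a loop of 4 bases TYTH, and AGRRCC. Y is C or T, R is A or G, and H is A, C or T. The stem of 6 base pairs had to match perfectly, and other stems or loops would not be found. Such a stretch was found after the coding sequence in an annotated transcript of 46 of the 67 genes, and of 38 of the 53 described. The same pattern occurred anywhere in an annotated transcript of 4 of 21961 other protein-coding genes (0.0182%). Of those, H2afx encodes the variant H2A.X, which is also known to have a stem-loop transcript, and Trim17 has an annotated transcript that shares exon sequence with Hist3h2a. The other genes were H2bfm and Syncrip. The 8 sequences found among the 46 genes are written below as DNA, 5′ to 3′ on the strand of the gene, from GENCODE M21 transcripts on GRCm38, with the stem-loop in capitals and 5 bases on either side in lower case. Each is given for the gene with the most counts among those that carry it.
Hist1h1c: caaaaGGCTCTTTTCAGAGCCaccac
Hist1h3e: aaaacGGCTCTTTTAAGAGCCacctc
Hist2h2ac: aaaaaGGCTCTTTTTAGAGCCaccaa
Hist1h3g: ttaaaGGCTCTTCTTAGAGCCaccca
Hist1h4d: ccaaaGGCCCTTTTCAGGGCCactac
Hist2h4: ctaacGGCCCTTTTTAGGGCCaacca
Hist1h4a: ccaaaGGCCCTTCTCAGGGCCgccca
Hist1h4b: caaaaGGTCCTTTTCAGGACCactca

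The stem separated the H4 genes from the rest. Within the preset pattern, all 34 genes of the other classes with a stem-loop had a stem that begins with GGCTC. All 12 H4 genes with a stem-loop had GGCCC or GGTCC in its place. The most frequent sequence, shown for Hist1h1c (chr13:23739512-23739527, plus strand), was shared by 26 genes of H1, H2A, H2B and H3. The most frequent in H4, shown for Hist1h4d (chr13:23581950-23581965, plus strand), was shared by 7 genes. The sequence shown for Hist1h3e (chr13:23561903-23561918, minus strand) occurred in 6 genes, and those of Hist2h4 (chr3:96262939-96262954, minus strand) and Hist1h4b (chr13:23757366-23757381, plus strand) in 2 H4 genes each. Those of Hist1h4a, Hist1h3g and Hist2h2ac occurred in 1 gene each, and Hist1h3g is named for its sequence.

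The stem-loop began 21 to 54 bases after the stop codon (median 31). The annotation did not end there in many genes: 11 to 4884 bases followed it (median 153), and 21 of the 38 genes had more than 100 annotated bases after it. A poly(A) signal, AATAAA or ATTAAA, lay in that stretch of 14 of the 21, and of 1 of the 17 with at most 100 bases. The longest stretch was that of Hist1h1d, which encodes an H1 subtype. Of the 15 described genes with no stem-loop, 13 have transcript models that end within 50 bases of the stop codon, so for them the absence says little about the RNA. The others are Hist1h2bc and Hist2h2be, named for their annotated ends. Up to 742 and 2192 annotated bases follow their stop codons, and the preset pattern was not found there.

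Promoters were read from the RefSeq table on GRCm38.p6, which gives 250 bases before and 50 after the start and holds 48 of the 53 genes. The octamer ATTTGCAT, on either strand, was in 5 of 10 H2A and 5 of 13 H2B promoters, in none of the 5 H1, 9 H3 or 11 H4 promoters, and in 1.74% of all 32851 promoters. The letters CCAAT, on either strand, were in all 37 H1, H2A, H2B and H3 promoters, in 3 of 11 H4 promoters and in 37.4% of all promoters. TATAAA, on either strand, was in 29 of the 48 and in 13.6% of all. The promoter of Hist1h2bg is printed because it holds all these motifs, and that of Hist1h4c, an H4 gene with CCAAT, because it holds neither the octamer nor TATAAA. They lie at chr13:23571150-23571449 on the plus strand and chr13:23698409-23698708 on the minus strand, and capitals mark CCAAT (or its reverse ATTGG), the octamer and TATAAA.
Hist1h2bg: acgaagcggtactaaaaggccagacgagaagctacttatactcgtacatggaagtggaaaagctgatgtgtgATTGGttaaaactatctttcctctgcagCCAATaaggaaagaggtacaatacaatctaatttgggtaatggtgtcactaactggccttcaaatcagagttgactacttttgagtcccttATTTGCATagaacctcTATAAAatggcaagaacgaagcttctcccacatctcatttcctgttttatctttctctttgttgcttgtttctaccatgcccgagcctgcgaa
Hist1h4c: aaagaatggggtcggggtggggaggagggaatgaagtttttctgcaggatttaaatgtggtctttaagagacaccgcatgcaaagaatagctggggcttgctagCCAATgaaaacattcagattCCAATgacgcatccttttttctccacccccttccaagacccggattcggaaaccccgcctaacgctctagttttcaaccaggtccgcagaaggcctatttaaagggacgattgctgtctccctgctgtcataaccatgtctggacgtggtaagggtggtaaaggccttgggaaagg

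The genes lie in 5 blocks, counting a gap of over 1 Mb as a break. The Hist1 genes form a pair of blocks on chromosome 13, with 23 genes at chr13:21715763-22043676 and 31 at chr13:23531050-23934851. The Hist2 genes, 10 in all, lie at chr3:96219865-96270132, both Hist3 genes at chr11:58948920-58956830 and the single Hist4 gene on chromosome 6. The 5 most abundant genes took 42.1% of the counts of the 53, and 7 genes took over 50% of them.

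Copies of these genes share much of their sequence, which bears on many of the counts. Windows of 50 bases in a gene's annotated transcripts were called unique if no transcript of another GENCODE M21 gene held them, on either strand. Their share ranged from 0% to 100% with a median of 53% over the 53 genes, and 23 of the 53 were under 50%. Genes that overlap in place also count as sharing. Exons of another gene overlapped 5 of the 53 on the same strand and 13 on the opposite strand. A low share can thus come from such overlap and not from copies elsewhere. Over the 14 genes left out the median was 9.03%. The deposited counts hold only read pairs with a single place in the genome, so the counts of such copies can be too low and their levels against other genes are uncertain. Among the 14 were 8 genes with 0 counts in all samples, whose unique windows ranged from 0% to 76.2%. A count of 0 allows up to 3 counts in a library, and it says nothing of RNA whose reads were set aside as shared. Just inside the limit of 10 counts were Hist1h2bp and Hist1h2af with means of 11.3 and 11.8 counts, and just outside it Hist2h2aa2 with 9.83.

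The summed level of the 53 genes was 298, 333 and 247 CPM in Control-ASO replicates 1 to 3 and 143, 274 and 333 CPM in Snhg11-ASO replicates 1 to 3. Snhg11-ASO replicate 1 was lowest, at 48.1% of the mean of the other 5 and 57.9% of the lowest of them, while the other Snhg11-ASO samples lay within the control range or level with its top. The means were 293 ± 43.3 CPM in Control-ASO and 250 ± 97.4 CPM in Snhg11-ASO (SD, n = 3 each), so the difference was smaller than the spread among the Snhg11-ASO samples.

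**Figure D1:**
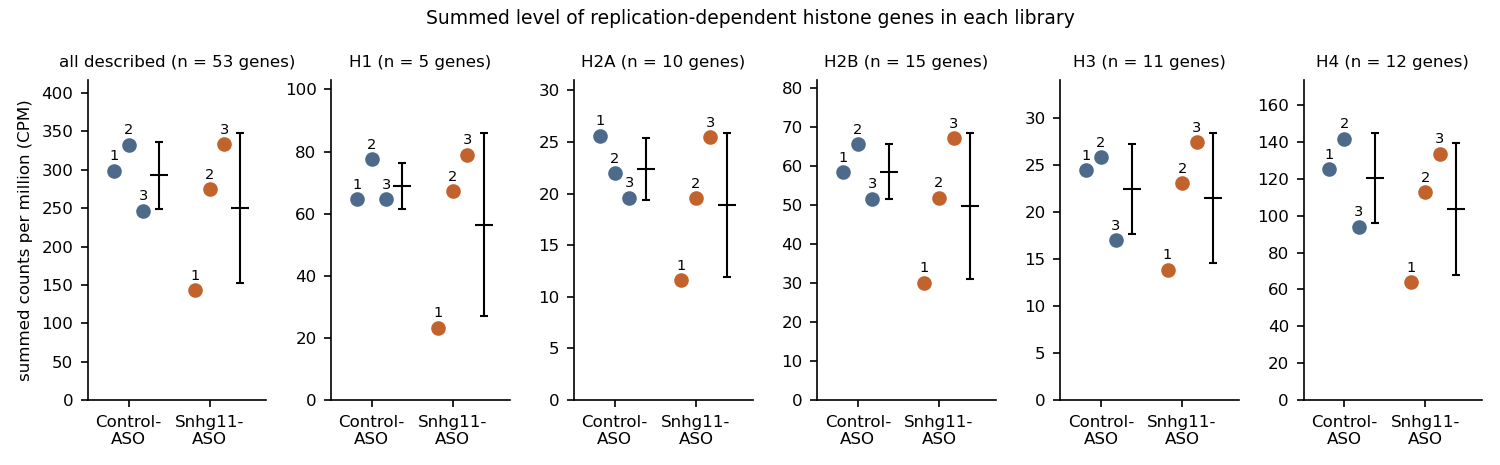
Summed CPM (y axes from 0) of all 53 described genes and of each class, in the 3 Control-ASO and the 3 Snhg11-ASO libraries (points, labelled with the replicate number), with mean and SD beside them. Snhg11-ASO replicate 1 is the lowest point in every panel, and replicates 2 and 3 lie within or near the control points.

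No gene of the family passed the test between Snhg11-ASO and Control-ASO. In edgeR's quasi-likelihood test 0 of 53 had an adjusted p under 0.05, as did 0% of the 19969 genes tested, and 0 of 53 had an unadjusted p under 0.05, against 8.11% of all genes tested. The smallest adjusted p was 0.682. In DESeq2 0 of 53 were called, with a smallest adjusted p of 0.642, while 1.29% of all genes tested were called. The 3 samples of each group did not overlap for 1 gene, Hist2h2ab, which was lower in Snhg11-ASO (7.7% of all genes tested), and for 0 genes in the other direction (7.73% of all genes tested). The SE of the log2 fold changes ran from 0.19 to 0.86 with a median of 0.42, so changes of that size were not detectable with these samples.

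The median log2 fold change over the 53 genes was -0.21, with 43 lower and 10 higher, and the median over all genes tested was 0.01. Without Snhg11-ASO replicate 1 the median was 0.09, with 38 higher and 15 lower, and again 0 of 53 passed, the smallest unadjusted p being 0.051 and the smallest adjusted p 0.501. In that comparison the groups did not overlap for 4 genes, all higher in Snhg11-ASO (14.7% of the 20226 genes tested): Hist1h2bf, Hist1h2bl, Hist1h2bp and Hist2h3c2, named after their values were seen. Of the 6 libraries, this was the one whose removal turned the sign of the median.

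**Figure D2:**
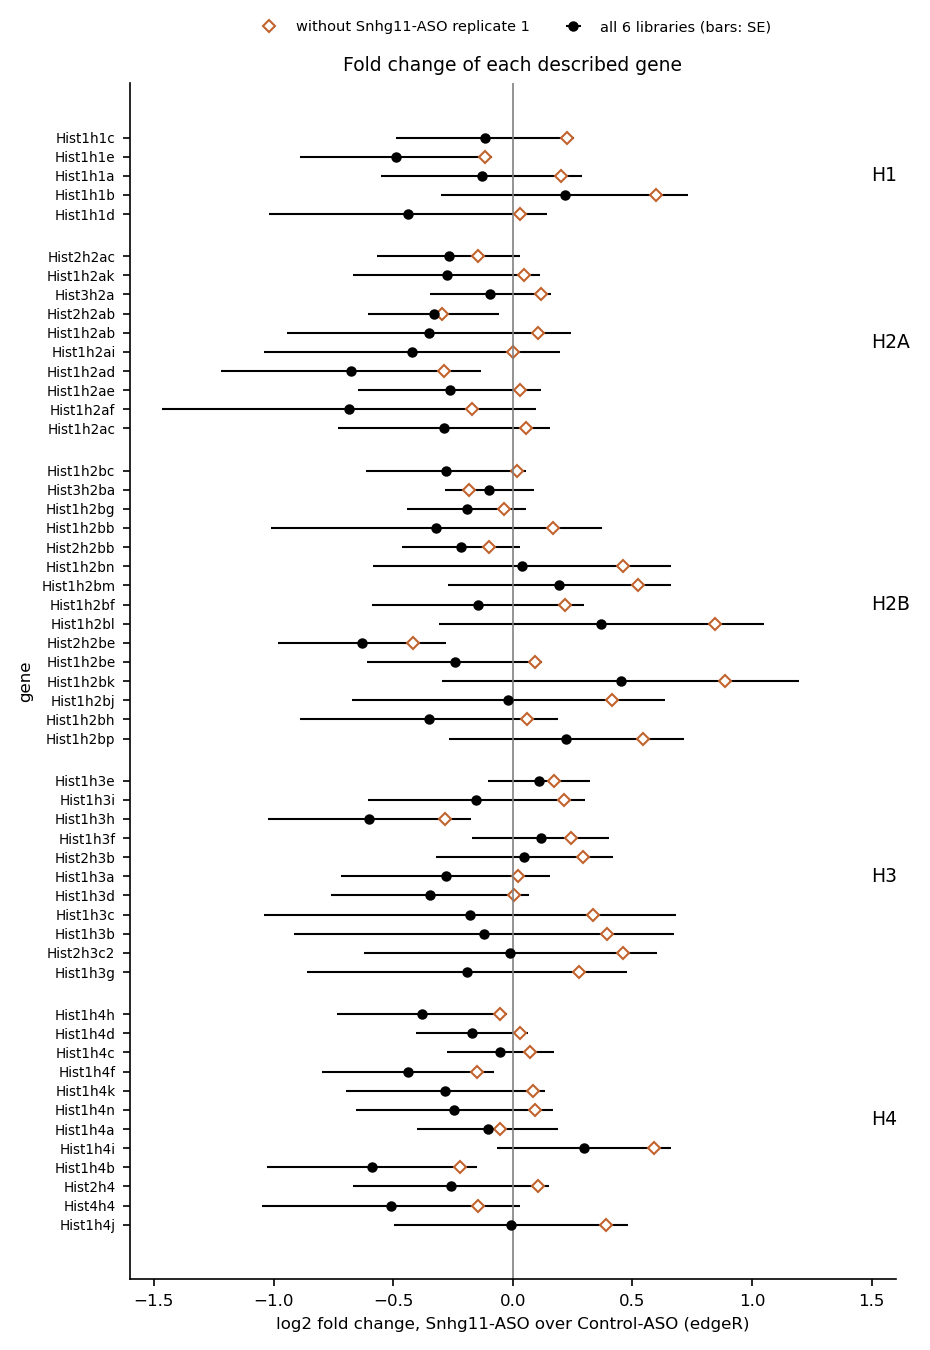
Log2 fold change of each of the 53 genes (x axis), Snhg11-ASO over Control-ASO, from edgeR with all 6 libraries (black points, bars of 1 SE) and without Snhg11-ASO replicate 1 (open diamonds), grouped by class. With all 6 libraries 43 of 53 points lie below 0, and without that replicate 15 of 53 do.

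Most of the family was low in Snhg11-ASO replicate 1. This library had the lowest level of the 6 for 46 of the 53 genes (32.5% of all genes tested), and for 40 of 53 it stood at under 50% of the mean of the other 5 (8.88% of all genes tested). Control-ASO replicate 3 was lowest for 4 genes and Snhg11-ASO replicate 2 for 3. The median over the 53 genes was 38.4% of the other 5, and over all genes tested 98.8%. The range was wide, from 6.65% for Hist1h2af to 110% for Hist3h2ba, with 12 genes under 25% and 6 over 75%.

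The 5 classes were alike in this. Their medians in Snhg11-ASO replicate 1 were 38.4% of the other 5 for H1, 38.4% for H2A, 39.3% for H2B, 35.5% for H3 and 38.6% for H4. The blocks differed more: the median was 35.5% and 37.6% in the pair of blocks on chromosome 13, 58.9% over the 7 Hist2 genes, 31.3% for Hist4h4, and Hist3h2a and Hist3h2ba stood at 62.2% and 110%. Genes with a stem-loop and at most 100 annotated bases after it had a median of 29.2% (17 genes), those with a longer annotated end 39.9% (21 genes), and those with no stem-loop found 38.4% (15 genes). These differences are a description, since the genes share the same 6 libraries.

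Across the 53 genes the ratio of Snhg11-ASO replicate 1 to the other 5 went with the mean count (Spearman's rho 0.455), and weakly with the share of unique windows (0.185), exon length (0.145) and GC content (-0.273). It also went weakly with the annotated bases after the stop codon (0.150), and with those after the stem-loop over the 38 genes with one (0.186). Genes with few counts have noisier ratios, and all points come from the same libraries.

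**Figure D3:**
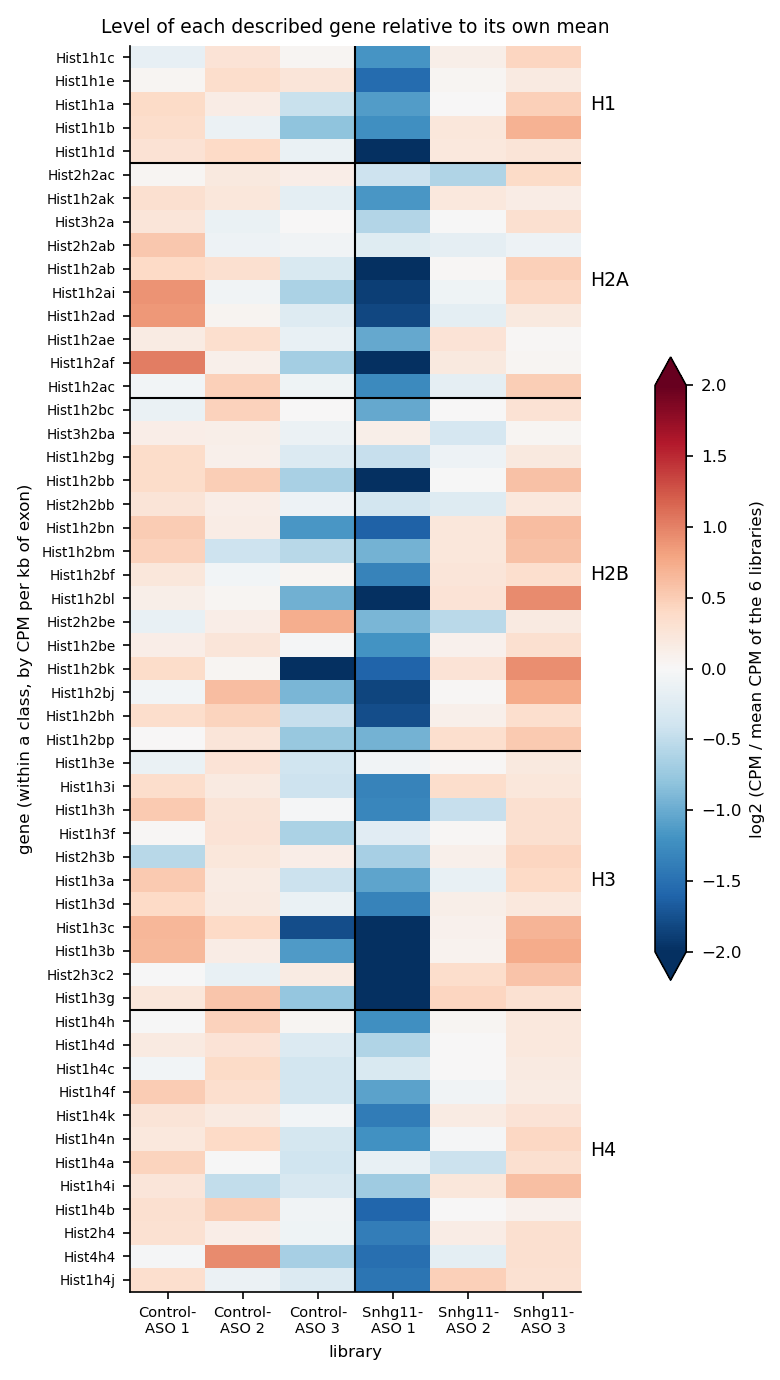
Level of each of the 53 genes (y axis, by class and within a class by CPM per kb of exon) in each of the 6 libraries (columns), as log2 of the CPM over the gene's mean of the 6 libraries. The column of Snhg11-ASO replicate 1 is the lowest for 46 of the 53 genes, and Control-ASO replicate 3 is the lowest for 4.

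The H1 genes encode the linker histones. Hist1h1c (ENSMUSG00000036181), an H1 subtype found in most tissues and the most abundant H1 gene here per kb of exon, stood at 22.1, 29.8 and 25.4 CPM in Control-ASO and at 11.0, 26.8 and 33.5 CPM in Snhg11-ASO. Hist1h1e stood at 22.7, 28.1 and 26.1 CPM in Control-ASO and at 7.53, 22.5 and 24.8 CPM in Snhg11-ASO. In both genes the first Snhg11-ASO value was below all others and the remaining values overlapped. The log2 fold change of Hist1h1e was -0.49 (SE 0.40), and -0.12 without Snhg11-ASO replicate 1, and that of Hist1h1c was -0.12 (SE 0.37), and 0.23 without it. Part of Hist1h1e overlaps Hist1h2be on the same strand, so its count is uncertain. Hist1h1d, named after its values were seen, had the lowest ratio of this class, 17.1% of the other 5, with 1.94 CPM in Snhg11-ASO replicate 1 against 8.94 to 12.96 CPM in the others.

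Hist1h1a and Hist1h1b encode H1 subtypes known mainly from dividing cells. Hist1h1a stood at 5.47, 4.67 and 3.09 CPM in Control-ASO and at 1.94, 4.26 and 5.86 CPM in Snhg11-ASO. Hist1h1b stood at 2.52, 1.81 and 1.13 CPM in Control-ASO and at 0.839, 2.30 and 3.18 CPM in Snhg11-ASO. All their 50-base windows were unique among GENCODE M21 transcripts. Unannotated copies and near matches were not searched. For both genes Snhg11-ASO replicate 1 was lowest and Snhg11-ASO replicate 3 highest. Over the 5 H1 genes the median log2 fold change was -0.13, with 4 lower and 1 higher, and 0.20 without Snhg11-ASO replicate 1.

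The H2A genes had the lowest median of the 5 classes, -0.31, and all 10 were lower in Snhg11-ASO. Without replicate 1 the median was 0.02. Hist2h2ac, the most abundant per kb of exon, stood at 3.16, 3.54 and 3.38 CPM in Control-ASO and at 2.31, 2.03 and 4.03 CPM in Snhg11-ASO. Hist1h2ak stood at 2.58, 2.41 and 1.81 CPM in Control-ASO and at 0.918, 2.39 and 2.29 CPM in Snhg11-ASO. The groups overlapped for both. Of the strand-resolved counts of Hist2h2ac, 17.6% lay on the opposite strand, where Gm44492 is annotated.

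Hist2h2ab was the gene whose groups did not overlap. It stood at 1.90, 1.22 and 1.25 CPM in Control-ASO and at 1.10, 1.15 and 1.21 CPM in Snhg11-ASO, so the gap between the groups was small and the control mean rested on replicate 1. Its log2 fold change was -0.33 (SE 0.27, edgeR adjusted p = 0.775). Of its windows 35.2% were unique, and 20.8% of its strand-resolved counts lay on the opposite strand. Hist3h2a, which lies beside Hist3h2ba in a block of its own, stood at 9.31, 7.16 and 7.90 CPM in Control-ASO and at 5.22, 7.80 and 9.80 CPM in Snhg11-ASO. Hist1h2af had the lowest log2 fold change of the family, -0.69 (SE 0.78), on a mean of 11.8 counts, and -0.17 without Snhg11-ASO replicate 1, where Hist2h2be, at -0.42, was the lowest. Snhg11-ASO replicate 1 held 1 count of it, 0.0262 CPM against 0.208 to 0.680 CPM in the other 5, a ratio of 6.65% with a 95% exact Poisson interval from 0.168% to 37.1% that covers counting error only. Of its windows 6% were unique.

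Among the H2B genes 10 were lower and 5 higher, with a median of -0.15, and 0.17 without Snhg11-ASO replicate 1. Hist1h2bc stood at 15.9, 24.0 and 17.4 CPM in Control-ASO and at 8.55, 17.4 and 21.2 CPM in Snhg11-ASO. Hist1h2bb stood at 4.76, 5.2 and 2.35 CPM in Control-ASO and at 0.629, 3.66 and 5.54 CPM in Snhg11-ASO. In both, replicate 1 of Snhg11-ASO was far below the rest, at 44.6% of the other 5 for Hist1h2bc and 14.6% for Hist1h2bb.

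Other H2B genes kept more of their level in this library. Hist3h2ba stood at 6.87, 6.75 and 5.76 CPM in Control-ASO and at 6.74, 4.93 and 6.44 CPM in Snhg11-ASO, with replicate 1 the highest of its group. Hist1h2bg, whose promoter is printed above, stood at 7.31, 6.06 and 4.69 CPM in Control-ASO and at 4.09, 5.26 and 6.44 CPM in Snhg11-ASO. The range of Hist1h2bg over the 6 libraries was narrow, and replicate 1 of Snhg11-ASO was at 68.7% of the other 5.

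Hist1h2bk had the highest log2 fold change of the family, 0.45 (SE 0.75), on a mean of 24.0 counts. It stood at 0.816, 0.654 and 0.148 CPM in Control-ASO and at 0.210, 0.766 and 1.21 CPM in Snhg11-ASO, so both groups held a low sample and the groups overlapped. Hist2h2be, named after its values were seen, had the smallest unadjusted p of the 53, 0.116 in edgeR. It stood at 4.62, 5.65 and 8.46 CPM in Control-ASO and at 2.73, 3.52 and 5.84 CPM in Snhg11-ASO, with a log2 fold change of -0.63 (SE 0.35, adjusted p = 0.682), and -0.42 without Snhg11-ASO replicate 1. All its windows were unique. With the replicate number as a block, edgeR gave this gene, 1 of 53, an unadjusted p under 0.05 (adjusted p = 0.490 in edgeR), where 8.59% of all genes tested had one.

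The H3 genes ranged from 11.0% to 94.0% of the other 5 in Snhg11-ASO replicate 1. Such a range was not particular to H3. The H2A genes ran from 6.65% (Hist1h2af) to 81.8% (Hist2h2ab), and the H2B genes Hist1h2bb and Hist3h2ba stood at 14.6% and 110%. Hist1h3e stood at 6.05, 8.09 and 5.08 CPM in Control-ASO and at 6.32, 6.77 and 7.65 CPM in Snhg11-ASO, and Hist1h3f at 4.01, 4.79 and 2.55 CPM and at 3.36, 4.02 and 4.92 CPM. In both genes every Snhg11-ASO value lay within or near the control range, and replicate 1 was at 94.0% of the other 5 for Hist1h3e and at 82.7% for Hist1h3f. By contrast Hist1h3b and Hist1h3c, named after their values were seen, were at 11.5% and 11.0%, with 0.105 CPM each in that library. There 1 count equals 0.0262 CPM, so these ratios rest on few counts and are uncertain. Both were also low in Control-ASO replicate 3, at 0.356 and 0.237 CPM, against 0.814 to 1.31 CPM in the other 4 libraries. Hist1h3e, Hist1h3f and Hist1h3c carry the same stem-loop, that printed for Hist1h3e, and differ in their annotated ends, with 369, 365 and 74 bases after it. Over all 38 described genes with a stem-loop, the ratio in that library went only weakly with the bases after it (Spearman's rho 0.186).

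Hist1h3i stood at 2.79, 2.47 and 1.63 CPM in Control-ASO and at 0.865, 2.78 and 2.54 CPM in Snhg11-ASO. Hist1h3h stood at 2.14, 1.78 and 1.45 CPM in Control-ASO and at 0.603, 1.08 and 1.86 CPM in Snhg11-ASO. Of their windows, 12.4% and 6.08% were unique. Hist1h3h was low in a pair of the Snhg11-ASO samples, with a log2 fold change of -0.60 (SE 0.42), and -0.28 without replicate 1. Over the 11 H3 genes the median was -0.15, with 8 lower and 3 higher, and 0.24 without replicate 1.

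The H4 genes held the highest levels of the family, and the 4 with the highest CPM per kb of exon were Hist1h4h (33.9), Hist1h4d (29.5), Hist1h4c (20.1) and Hist1h4f (17.6). Hist1h4d had the most counts of all 53, a mean of 1229, and stood at 37.9, 40.7 and 27.9 CPM in Control-ASO and at 22.2, 33.7 and 38.8 CPM in Snhg11-ASO. Hist1h4h stood at 15.9, 21.9 and 16.4 CPM in Control-ASO and at 6.82, 16.3 and 18.5 CPM in Snhg11-ASO. For both, replicate 1 of Snhg11-ASO was below all other libraries and replicates 2 and 3 were within the control range. The log2 fold change of Hist1h4d was -0.17 (SE 0.23), and 0.03 without replicate 1, and that of Hist1h4h was -0.38 (SE 0.36), and -0.05 without it.

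Hist1h4c, whose promoter is printed above, stood at 15.9, 21.6 and 12.8 CPM in Control-ASO and at 13.3, 16.5 and 18.7 CPM in Snhg11-ASO, and here the lowest library was Control-ASO replicate 3. Hist1h4f stood at 9.76, 8.65 and 5.34 CPM in Control-ASO and at 3.28, 6.53 and 7.70 CPM in Snhg11-ASO. These genes carry the same stem-loop, printed for Hist1h4d, and stood at 77.6% and 43.2% of the other 5 in Snhg11-ASO replicate 1, so genes with the same stem-loop were unlike in that library. Over the 12 H4 genes the median log2 fold change was -0.25, with 11 lower and 1 higher, and 0.05 without replicate 1.

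The pair of Hist1 blocks on chromosome 13 had different medians. Over the 15 described genes at chr13:21715763-22043676 the median log2 fold change was -0.01, with 8 lower and 7 higher, and over the 28 at chr13:23531050-23934851 it was -0.27, with 26 lower and 2 higher. Without Snhg11-ASO replicate 1 the medians were 0.42, with 14 of 15 higher, and 0.04, with 20 of 28 higher. Their per-library medians, as log2 differences from each gene's mean, were alike in Snhg11-ASO replicate 1, at -1.12 and -1.13. They were -0.40 and -0.24 in Control-ASO replicate 3 and 0.60 and 0.35 in Snhg11-ASO replicate 3. The genes of the first block had the lower share of unique windows, with a median of 28.5% against 58.2%. The difference between the blocks was not tested.

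**Figure D4:**
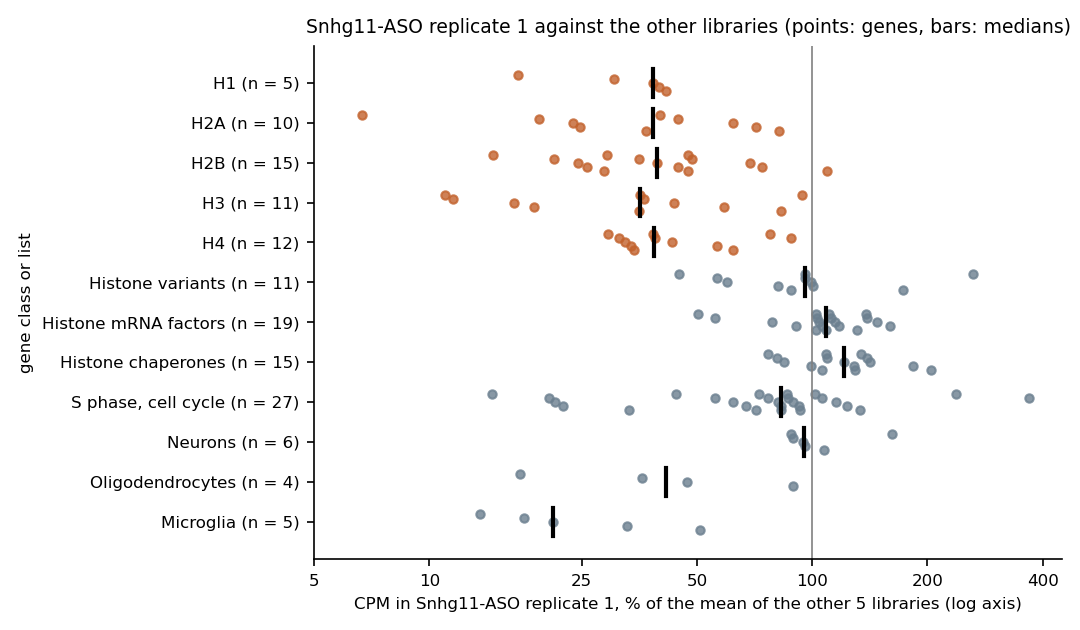
CPM in Snhg11-ASO replicate 1 as a percentage of the mean of the other 5 libraries (log axis), for each gene (points) of the 5 histone classes and of 7 gene lists, with medians as bars. The class medians lie between 35.5% and 39.3%, and those of the variants, mRNA factors, chaperones and neuronal markers between 95.1% and 121%. The median of the S phase and cell cycle list lies at 82.7%, and those of the oligodendrocyte and microglial markers at 41.6% and 21%.

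Genes that act with the family were described from lists set up by role. The 11 replication-independent variants, which supply nucleosomes outside S phase, had a median of 95.8% of the other 5 in Snhg11-ASO replicate 1, against 38.4% for the 53 genes, and 4 of 11 were lowest in it. Their median log2 fold change was 0.02, with 0 of 11 at an unadjusted p under 0.05 in edgeR (8.11% of all genes tested). H3f3b, an H3.3 gene and the most abundant of the list, stood at 94.98, 108 and 101 CPM in Control-ASO and at 184, 106 and 120 CPM in Snhg11-ASO, so it was highest where most cluster genes were lowest. H1f0, the variant linker histone of cells that no longer divide, stood at 48.8, 62.6 and 66.7 CPM in Control-ASO and at 35.2, 62.8 and 72.1 CPM in Snhg11-ASO. H2afx, named for its stem-loop, was at 95.8% of the other 5 in replicate 1.

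Of 21 genes for the transcription, processing and decay of histone mRNA, 19 were tested, and their median log2 fold change was 0.03. Npat, Slbp, Lsm10 and Lsm11 are given for their roles, outside the rule for naming genes. Npat, the cyclin E-dependent activator of these genes, stood at 43.1, 41.9 and 43.8 CPM in Control-ASO and at 45.3, 44.0 and 44.3 CPM in Snhg11-ASO. Slbp stood at 13.6, 10.3 and 14.1 CPM in Control-ASO and at 14.7, 12.3 and 11.9 CPM in Snhg11-ASO. Neither was low in Snhg11-ASO replicate 1. Lsm10, a protein of the U7 snRNP, stood at 2.26 CPM there against 3.54 to 5.24 CPM elsewhere, while its partner Lsm11 stood at 41.9 CPM against 26.9 to 37.9. In this list 1 of 19 genes had an unadjusted p under 0.05, a share no higher than the 8.11% of all genes tested. It was Cstf2, a cleavage stimulation factor (log2 fold change -0.26, SE 0.10, adjusted p = 0.599 in edgeR).

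For the 15 histone chaperones the median log2 fold change was 0.05. Chaf1a and Chaf1b, subunits of the chromatin assembly factor that loads new H3 and H4 onto replicated DNA, had unadjusted p values of 0.0456 and 0.00407 in edgeR, the 2 of 15 under 0.05 (8.11% of all genes tested). The groups did not overlap for 3 of the 15, all higher in Snhg11-ASO (7.73% of all genes tested): both of these and Ssrp1, a subunit of the chaperone FACT, with a log2 fold change of 0.12 (SE 0.08). Chaf1b stood at 0.374, 0.476 and 0.356 CPM in Control-ASO and at 1.08, 0.909 and 0.825 CPM in Snhg11-ASO, a log2 fold change of 1.21 (SE 0.29, adjusted p = 0.460), and 1.10 without Snhg11-ASO replicate 1. Neither passed after adjustment.

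Among the 27 genes of S phase and the cell cycle, 23 were higher and 4 lower, the median log2 fold change was 0.18, and without Snhg11-ASO replicate 1 it was 0.37. An unadjusted p under 0.05 was reached by 3 of the 27 (8.11% of all genes tested), all higher: Pcna, the sliding clamp of DNA replication, Mcm7, a subunit of the replicative helicase, and Cdt1, which loads that helicase. Pcna stood at 18.6, 18.2 and 16.6 CPM in Control-ASO and at 26.6, 22.7 and 23.3 CPM in Snhg11-ASO, a log2 fold change of 0.44 (SE 0.12, adjusted p = 0.492 in edgeR). The Pcna groups did not overlap, and replicate 1 was the highest library.

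Over this list, the median in Snhg11-ASO replicate 1 was 82.7% of the other 5. That library was lowest for 15 of 27 genes (32.5% of all genes tested). It stood at under 50% of the other 5 for 6 of 27 genes (8.88% of all genes tested). These were Top2a, Tk1, Ccnb1, Cdk1, Mki67 and Rrm2, named after their values were seen. Top2a, a topoisomerase of dividing cells, stood at 10.5, 8.06 and 4.78 CPM in Control-ASO and at 1.36, 11.4 and 12.1 CPM in Snhg11-ASO. Mki67, the proliferation marker Ki-67, stood at 12.8, 10.1 and 6.23 CPM in Control-ASO and at 4.01, 16.7 and 14.6 CPM in Snhg11-ASO. Both were lowest in the library with the lowest summed histone level and second lowest in Control-ASO replicate 3, the library with the next lowest. Tk1, Ccnb1 and Cdk1 were at 20.5%, 21.3% and 22.3% of the other 5 in Snhg11-ASO replicate 1, and Pcna and Cdt1 at 134% and 368%. The ratios of Tk1, Ccnb1 and Cdk1 rest on 6, 9 and 12 counts in that library, so they are uncertain. The part of proliferating cells in the histone values was not tested.

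Other RNAs that lack a poly(A) tail or have an unusual 3′ end were not low in that library. Rn7sk, the 7SK RNA, stood at 8117, 8859 and 4986 CPM in Control-ASO and at 7752, 6412 and 8858 CPM in Snhg11-ASO, and Malat1, whose end is cut by RNase P, was highest in Snhg11-ASO replicate 1, at 19530 CPM against 13489 to 15637 in the others. Neat1, an RNA of nuclear paraspeckles, stood at 7112 CPM in that library against 112 to 374 CPM in the other 5. The 3 other RNAs of this list, Rmrp, Rpph1 and Terc, had too few counts to be tested.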

How the data were processed

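RNA of 6 dorsal hippocampi was sequenced as stranded, ribosome-depleted, paired-end libraries (50 bases). Per the labels and the paper's methods the authors aligned reads to mm10 with STAR 2.5.2a, and they deposited raw counts of read pairs per gene for each sample. The paper names Rsubread for counting, while the layout is STAR's. The annotation release was not given in the sources used here. The 4 summary lines that name no gene held 43.5% to 51.4% of pairs and were left out. Reverse-strand counts were used (96.2% to 96.8% of strand-resolved counts).

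Names, positions and transcripts came from GENCODE M21, which matched 55141 of the 55401 genes. Genes passing filterByExpr (minimum count 10) were scaled with TMM and tested with edgeR 4.0.16 (R 4.3.3, quasi-likelihood, Benjamini-Hochberg over all genes), with DESeq2 1.42.0 as an alternative, and the code was tested on simulated data. CPM uses TMM-scaled library sizes, and SE is the size of the log2 fold change over the square root of F. The labels do not say whether samples sharing a number came from a shared day or litter. The deviations of same-numbered samples correlated at 0.297, 0.179 and 0.103. Those of differently numbered samples correlated at -0.285 to 0.188, the highest of them above 0.179 and 0.103, so a pairing was not established. The replicate number was used as a block in an alternative. The study removed 1 Snhg11-ASO sample, not identified in the sources used here, and all 3 were kept.

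The genes with values are the 4 of each class with the highest CPM per kb of exon, those with the extreme fold changes, those whose groups did not overlap and Snhg11, and others are marked in the text. Members and lists were chosen with earlier results of these data known. The edgeR and DESeq2 p-values set the difference between groups against the spread between mice, 3 per group, estimated with information shared across genes.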

Additional observations from a re-analysis of the deposited data

How the results depend on the processing

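No gene of the family had an adjusted p under 0.05 in any of the 20 alternatives, and the smallest adjusted p was 0.160, for Hist2h2be in DESeq2 on counts of both strands without Snhg11-ASO replicate 3. Of 432 fold changes of 22 named genes under these alternatives, 396 kept their sign. The median log2 fold change over the family stayed negative except without Snhg11-ASO replicate 1 (0.09, and 0.10 in DESeq2 on both strands), and was -0.51 when Snhg11-ASO replicate 3 was left out. Dropping Control-ASO replicates 1, 2 and 3 in turn gave -0.13, -0.11 and -0.35.

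The count with an unadjusted p under 0.05 was 0, and 1 (Hist2h2be) with the replicate block, alone, with the genomic span correction and with the GC correction. The block changed no other call on the family. Leaving out 1 library gave 0 to 3. The 3 of 53 (Hist2h2ac, Hist2h2be and Hist1h3h) came without Snhg11-ASO replicate 3, where 8.29% of all genes tested had such a p. The count whose groups did not overlap was 1, and 0 with upper-quartile factors, unfiltered genes, both strands counted, the genomic span correction, and that correction with the replicate block. Counting both strands leaves 47 of the 53 genes tested. Leaving out 1 library gave 1 to 7 in edgeR, and 0 to 5 in DESeq2 on both strands. There were 7 of 53 when Snhg11-ASO replicate 3 was dropped (25.1% of all genes tested), 6 when Control-ASO replicate 3 was (22.7%), 4 when Snhg11-ASO replicate 1 was (28.3%) and 2 when it was Control-ASO replicate 2 (26.9%), so the family stayed below the share of all genes in each. The cause of the shifts was not tested.

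The log2 fold change of Hist1h4c turned to 0.0033 with the span correction and to 0.012 with that and the replicate block. Leaving out 1 library turned the sign of 14 genes, whose log2 fold changes ranged from -0.45 to 0.24 for Hist1h1c, -0.51 to 0.21 for Hist1h1a, -0.21 to 0.61 for Hist1h1b, -0.71 to 0.049 for Hist1h2ak, -0.32 to 0.13 for Hist3h2a, -0.56 to 0.030 for Hist1h2bc, -0.18 to 0.028 for Hist3h2ba, -0.93 to 0.18 for Hist1h2bb, -0.037 to 0.31 for Hist1h3e, -0.42 to 0.23 for Hist1h3i, -0.10 to 0.32 for Hist1h3f, -0.36 to 0.042 for Hist1h4d, -0.22 to 0.17 for Hist1h4c and -0.19 to 0.90 for Hist1h2bk. The call on Snhg11 depended on the tool, since it passed in DESeq2, with all samples and without each Snhg11-ASO sample in turn, and in no edgeR fit.

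With 3 mice per group and 11.3 to 1229 mean counts per gene, the spread between samples set the precision. Single-place counting leaves out reads that copies share.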
